A study of Mus musculus with 5 samples.

Results

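The genes described here are 7 genes of cholesterol synthesis and its control (Srebf2, Hmgcs1, Sqle, Idi1, Fdps, Cyp51 and Insig1), picked by symbol from the 54532 gene IDs of a kidney read count table. All 7 were found and all 7 passed the expression filter that left 16226 genes for testing. The working label of the set also names cholesterol uptake, but none of the 7 is an uptake receptor, so uptake genes are described from a separate list. The kidneys came from wild-type male C57BL/6J mice, an inbred laboratory strain, aged 8 weeks. There were 3 vehicle libraries and 2 libraries from mice given DMXAA, a small molecule that activates the mouse innate immune adaptor STING, at 10 mg/kg. Both groups had intraperitoneal injections daily for 3 days and are labelled Day 3. The labels number the samples as replicates without saying that each is a separate mouse, so p-values measure only the spread between these samples, which may be technical.

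Cells make cholesterol from acetyl-CoA in a long chain of enzyme steps through HMG-CoA, mevalonate, isoprenoid diphosphates, squalene and lanosterol. The transcription factor SREBP2, encoded by Srebf2, drives the genes of this chain and genes of cholesterol uptake. When sterols are plentiful, INSIG proteins hold SREBP and its escort SCAP in the endoplasmic reticulum, and when sterols run low the complex moves to the Golgi, where proteases release the active factor. Insig1 is itself an SREBP target, so its transcript is part of a feedback loop. Kidney cells, like most cells, can make the cholesterol of their own membranes and can also take it up from lipoproteins.

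Upstream sequence is shown for 4 of the genes because SREBP2 is known to act on genes of this pathway through short sterol regulatory elements, often near a CCAAT box. RefSeq promoter sequences (build GRCm38.p6, from 250 bases before to 50 bases after the start site) were found for 5 of the 7 genes. The stretches below are cut so that they end before the gene as GENCODE M21 annotates it, read 5′ to 3′ on the gene's strand. Capitals mark every match to CACGTG (an E-box), CCAAT, TCACNCCAC or TCACCCCA, or to the sterol element variant shown in capitals in the Cyp51 line, on either strand, where TCACCCCA overlaps TCACNCCAC in Hmgcs1. The last 2 of these motifs were added after the sequences had been read. Some CCAAT matches counted below lie outside the stretches shown. Idi1, the remaining gene with a promoter sequence, is not printed because its stretch before the annotated gene held none of the motifs.
Hmgcs1, chr13:119690101-119690350, plus strand: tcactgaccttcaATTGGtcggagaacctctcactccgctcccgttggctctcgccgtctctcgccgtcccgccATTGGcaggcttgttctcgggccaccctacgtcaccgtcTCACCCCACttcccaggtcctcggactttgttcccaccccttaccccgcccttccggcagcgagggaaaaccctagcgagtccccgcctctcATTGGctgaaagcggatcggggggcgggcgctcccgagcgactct
Srebf2, chr15:82147019-82147180, plus strand: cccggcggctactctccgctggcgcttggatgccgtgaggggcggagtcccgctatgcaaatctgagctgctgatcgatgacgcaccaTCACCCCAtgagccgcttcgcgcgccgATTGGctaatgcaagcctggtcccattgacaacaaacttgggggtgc
Cyp51, chr5:4104747-4104947, minus strand: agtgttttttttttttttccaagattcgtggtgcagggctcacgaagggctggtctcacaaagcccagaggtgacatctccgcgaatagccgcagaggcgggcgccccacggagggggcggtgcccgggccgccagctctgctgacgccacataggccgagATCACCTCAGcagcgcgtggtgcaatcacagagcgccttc
Insig1, chr5:28071162-28071362, plus strand: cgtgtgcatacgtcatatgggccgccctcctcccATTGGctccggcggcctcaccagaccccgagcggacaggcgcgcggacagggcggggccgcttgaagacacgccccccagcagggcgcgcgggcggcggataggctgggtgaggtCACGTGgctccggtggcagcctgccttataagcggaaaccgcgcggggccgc

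CCAAT or its reverse complement was present in 5 of the 5 promoters and in 37.4% of all 32851 promoters of the same length, where a gene can have several. TCACNCCAC matched Hmgcs1 alone among the 5, against 1.24% of all promoters, and TCACCCCA matched Hmgcs1 and Srebf2, against 1.56%. A further sterol regulatory element, read as 10 fixed letters, matched 0 of the 5 and 0.0913% of all promoters. The 10-letter Cyp51 variant matched Cyp51 alone, against 0.0487% of all promoters. This variant and TCACCCCA were picked after the sequences had been read, so their matches here were known beforehand and the shares measure no enrichment. Insig1 was the 1 promoter of the 5 with CACGTG, at 101 to 96 bases before its start site, a motif held by 7.15% of all promoters. Among 15 other synthesis enzymes with a promoter sequence, 13 held CCAAT, 3 held CACGTG (Dhcr7, Hsd17b7 and Sc5d) and 0 held any of the other 4 motifs. These are letter matches, not measured binding sites.

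The libraries held 17667490 to 20264228 counts. Markers of the labelled tissue were abundant: the proximal tubule phosphate transporter Slc34a1 was at 2967 to 4218 CPM and Umod at 2812 to 5567 CPM. Vehicle library 1 stood apart, with 911 CPM of 9 summed adipose markers against 43.7 to 71.3 CPM in the other 4 libraries, 279 CPM of 8 urothelial markers against 105 to 144 CPM, and 1248 CPM of 6 collecting duct and inner medulla markers against 409 to 615 CPM. Adipose tissue expresses cholesterol synthesis genes, and the part of these transcripts in the levels of vehicle library 1 was not tested. Vehicle library 2 differed in another way. Slc14a2, from the collecting duct and inner medulla set, was at 8.76 CPM there against 65.8 to 90.1 CPM in the other 4 libraries. The part of this difference in the levels of the 7 genes was not tested either. The adrenal cortex, a neighbouring tissue with high cholesterol turnover, was represented by 8 markers summing to 5.27 to 7.41 CPM, nearly all from Star and Akr1b7, and its defining enzyme genes Cyp11b1 and Cyp11b2 had 0 reads in all 5 libraries.

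None of the 7 transcripts passed the test between DMXAA and vehicle kidneys. Insig1 was the 1 gene of the 7 whose groups did not overlap, with both DMXAA libraries below all 3 vehicle libraries. Srebf2, Hmgcs1, Sqle, Idi1 and Cyp51 had overlapping groups and fitted differences of at most 0.14 in size on the log2 scale. The Fdps counts were too few, and too entangled with other annotated genes, to speak of that enzyme's transcript. The test was edgeR's quasi-likelihood test with Benjamini-Hochberg adjustment over all 16226 genes, with a call at an adjusted p below 0.05: it called 0 of the 7 genes and 0% of all tested genes. At an unadjusted p below 0.05 it counted 1 of the 7 (Insig1), against 6.55% of all tested genes (1062 genes). Groups that did not overlap were seen in 1 of the 7 and in 26% of all tested genes. The median log2 fold change was -0.053 over the 7 genes, -0.0175 over the 6 without Fdps and -0.015 over all tested genes.

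Levels below are in CPM, read counts scaled to library size with TMM factors, which do not correct for gene length. Srebf2 (ENSMUSG00000022463, mm10 chromosome 15 from 82147181 to 82205379), the gene of the master regulator, was at 123, 140 and 148 CPM in vehicle libraries 1, 2 and 3 and at 134 and 143 CPM in DMXAA libraries 1 and 2. The DMXAA values lay inside the vehicle range. Its fold change was 1.01, with a 95% interval of 0.845 to 1.21 (log2 0.018, SE 0.11; edgeR adjusted p = 0.981).

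Insig1 (ENSMUSG00000045294, chromosome 5 from 28071363 to 28078662), the sterol-responsive retention factor, was at 53.0, 74.4 and 60.0 CPM with vehicle against 42.8 and 44.4 CPM with DMXAA. The 2 DMXAA libraries were nearly alike, and the gap to the lowest vehicle library was smaller than the spread among the vehicle libraries. The means were 62.5 ± 10.9 (SD, n = 3) and 43.6 ± 1.09 (SD, n = 2) CPM. Its fold change was 0.698, with a 95% interval of 0.544 to 0.896 (log2 -0.52, SE 0.15), at an unadjusted p of 0.0117 and an adjusted p of 0.724 in edgeR. DESeq2 gave an adjusted p of 0.283. Without vehicle library 2, the highest and the library low in Slc14a2, the log2 fold change was -0.37. Without vehicle library 1, the library with adipose transcripts, it was -0.63. Insig2, the other INSIG gene, was at 58.0, 56.3 and 56.5 CPM with vehicle against 55.4 and 54.6 CPM with DMXAA (log2 fold change -0.050, SE 0.082). The groups of Insig2 did not overlap either, at a far smaller distance than for Insig1.

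**Figure D1:**
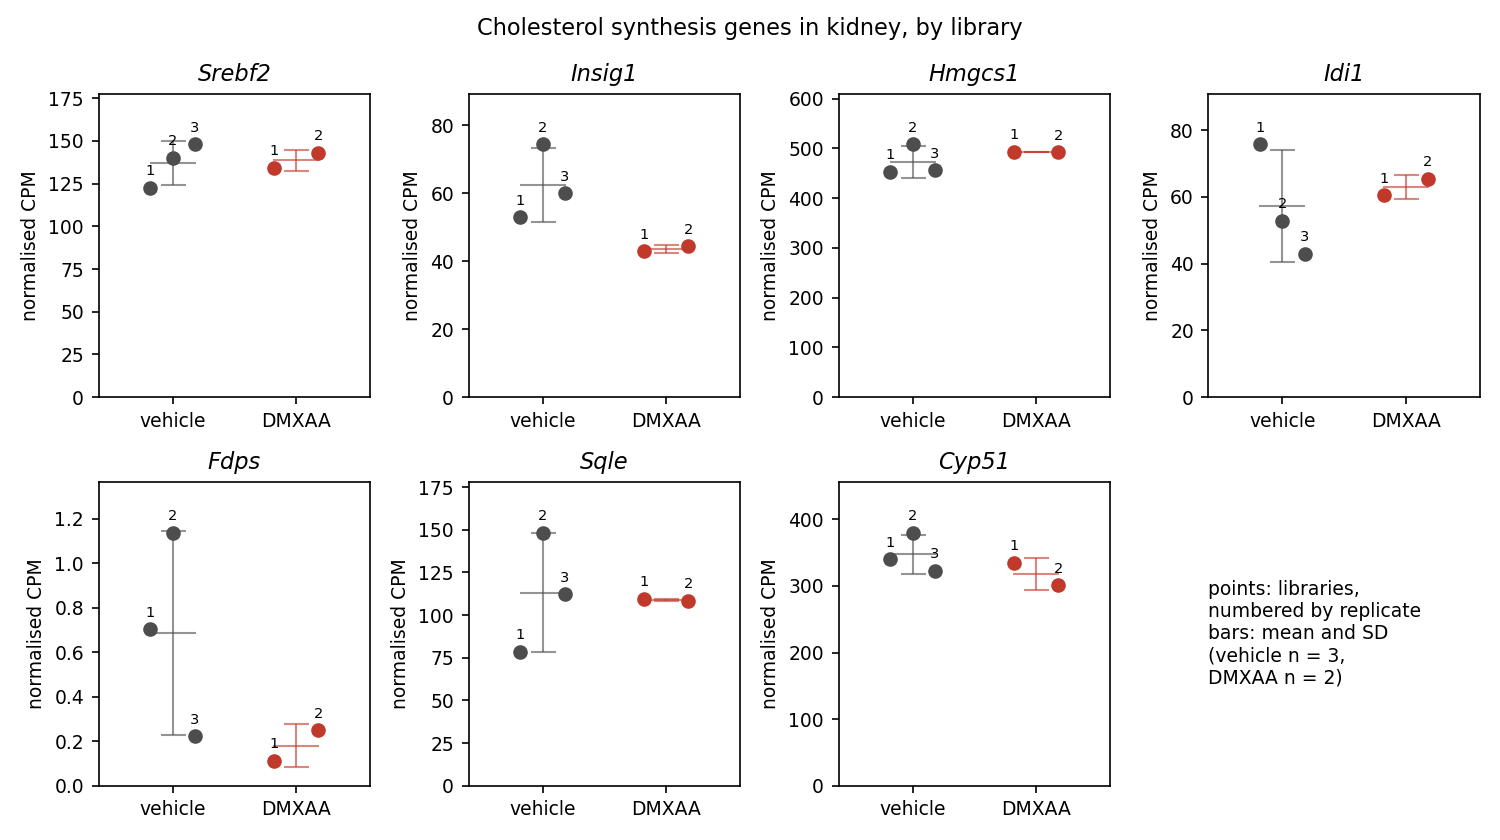
Normalised CPM of each of the 7 genes (y axis, from 0) in the 3 vehicle and 2 DMXAA libraries (points, numbered by replicate), with mean and SD as bars. Insig1 is the 1 panel in which the groups do not overlap: DMXAA libraries at 42.8 and 44.4 CPM lie under the lowest vehicle library at 53.0 CPM.

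Hmgcs1 (ENSMUSG00000093930, chromosome 13 from 119690379 to 119708260) encodes the cytosolic HMG-CoA synthase at the head of the pathway. It was at 453, 509 and 456 CPM with vehicle against 493 and 492 CPM with DMXAA. Both DMXAA libraries lay between vehicle libraries 3 and 2. With a fold change of 1.04 (95% interval 0.872 to 1.25; edgeR adjusted p = 0.909), it had the smallest relative spread of the 7 genes among vehicle libraries, an SD of 6.64% of the mean where counting error alone gives 1.08%.

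Idi1 (ENSMUSG00000058258, chromosome 13 from 8885501 to 8892451) encodes the isomerase that makes the allylic isoprenoid unit. Its levels were 75.8, 52.8 and 43.0 CPM with vehicle against 60.5 and 65.4 CPM with DMXAA. The vehicle libraries spanned a 1.76-fold range that enclosed both DMXAA libraries, and the fold change was 1.10 (95% interval 0.760 to 1.59; edgeR adjusted p = 0.898). The estimate depended on single vehicle libraries: without vehicle library 1 the log2 fold change was 0.39 (unadjusted p = 0.016, adjusted p = 0.420 in edgeR), and without vehicle library 3 it was -0.032.

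Sqle (ENSMUSG00000022351, chromosome 15 from 59315077 to 59331192) encodes squalene epoxidase, a rate-limiting step after squalene. It was at 78.6, 148 and 112 CPM with vehicle against 109 and 108 CPM with DMXAA. The vehicle range was 1.89-fold, the widest of the 7 genes apart from Fdps, and the DMXAA pair lay inside it. Its fold change was 0.964, with a 95% interval of 0.648 to 1.43 (edgeR adjusted p = 0.974). The sign turned with single libraries: the log2 fold change was -0.26 without vehicle library 1 and 0.19 without vehicle library 2.

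Cyp51 (ENSMUSG00000001467, chromosome 5 from 4081145 to 4104746), the lanosterol demethylase that starts the conversion of lanosterol to cholesterol, was at 340, 380 and 323 CPM with vehicle against 335 and 301 CPM with DMXAA. DMXAA library 2 was the lowest of the 5 libraries, and DMXAA library 1 lay inside the vehicle range. The fold change was 0.914 (95% interval 0.754 to 1.11; edgeR adjusted p = 0.822).

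Fdps (ENSMUSG00000059743, chromosome 3 from 89093588 to 89101959) encodes farnesyl diphosphate synthase, which joins isoprenoid units into the 15-carbon precursor of squalene. Fdps had 13, 20 and 4 assigned reads with vehicle against 2 and 5 with DMXAA, or 0.703, 1.14 and 0.222 CPM against 0.111 and 0.249 CPM. A count of 3, the limit taken for detection, is 0.149 to 0.171 CPM in these libraries. Fdps passed the expression filter through vehicle libraries alone. The groups overlapped, and the fitted fold change of 0.273 had a 95% interval of 0.069 to 1.08 (edgeR adjusted p = 0.741).

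GENCODE M21 places a second protein-coding gene, Gm43738 (chromosome 3 from 89081939 to 89101099), on the same strand across Fdps, and this gene was listed with 0 reads in all 5 libraries. Of the 1382 exon bases of the longest coding Fdps transcript, 81.3% are also exon bases of Gm43738, and over the 5 coding transcripts the share is 74.7 to 81.3%. A blastn search of that transcript also found 5 processed pseudogenes at 95% identity or more, of which 4 cover at least 74.3% of it. One of these, Gm3571 on chromosome 10 at 98.9% identity, had 39, 55 and 50 reads with vehicle against 31 and 50 with DMXAA, more than Fdps itself in every library. How the authors counted reads that fall on 2 genes or map to several places is not given in the sources used here, and the part of these copies in the Fdps count was not tested. The value therefore describes the reads assigned to Fdps, not the enzyme's transcript level. No other gene of the 7 had an annotated relative at that identity over 50% of its longest coding transcript. Idi1 had 2 processed pseudogenes covering 22.5 and 22.6% of it, with 6 to 31 reads each per library.

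**Figure D2:**
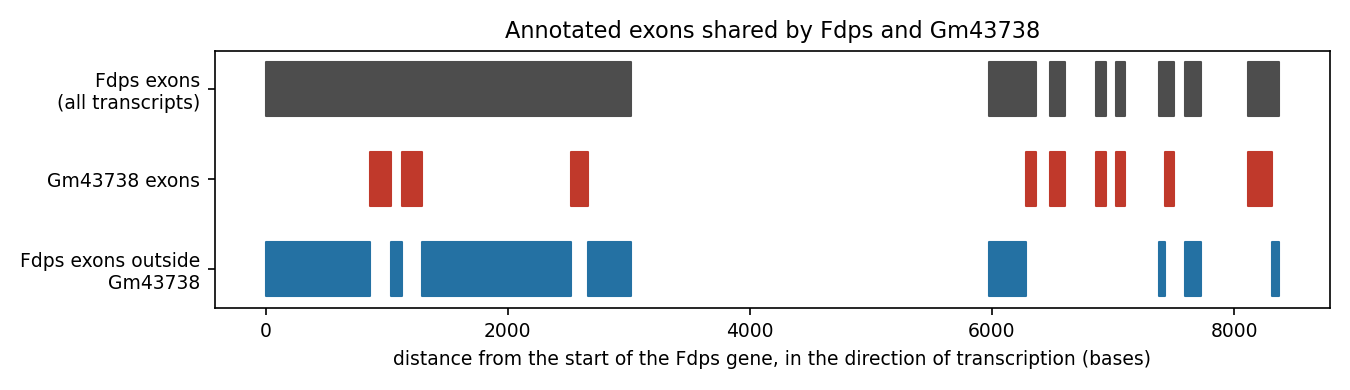
Exons of Fdps (all transcripts merged) and of Gm43738 within the Fdps gene, and the Fdps exon bases outside Gm43738, by distance in bases from the start of the Fdps gene in the direction of transcription. Over all transcripts, 26.7% of the Fdps exon bases are shared with Gm43738.

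The 7 genes did not share 1 order of the vehicle libraries. Vehicle library 2 held the highest level of 5 of the 7 (Hmgcs1, Sqle, Fdps, Cyp51 and Insig1), while Idi1 was highest in vehicle library 1 and Srebf2 in vehicle library 3. Idi1 was highest and Sqle lowest in vehicle library 1: the ratio of Idi1 to Sqle CPM was 0.964 in vehicle library 1, then 0.356 and 0.383 in the other vehicle libraries, with the DMXAA libraries between them at 0.552 and 0.603. For each of the 7 genes the SD was a smaller share of the mean in the DMXAA pair than in the vehicle libraries. These SDs rest on 2 and 3 libraries, and the closeness was not particular to the 7 genes. Over genes in general, the chi-square statistic per degree of freedom between 2 libraries was 7.35 for the DMXAA pair. It was 20.3 to 38.5 for pairs of vehicle libraries.

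Compared per exon length (TPM, the share of transcripts after division of reads by exon length) and averaged over the vehicle libraries, Hmgcs1 was the most abundant of the 7 at 271 ± 4.45 TPM (SD, n = 3), followed by Cyp51 at 207 ± 9.79 TPM. Sqle (53.0 ± 12.9 TPM), Insig1 (52.9 ± 5.46 TPM), Srebf2 (50.2 ± 4.44 TPM) and Idi1 (43.4 ± 14.9 TPM) followed, and neighbours among these 4 differed by less than the larger of their SDs. Fdps reads gave 0.42 ± 0.26 TPM. Lengths are those of merged exons, so genes with long rarely used exons read low on this scale.

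The other enzymes of the pathway mostly had estimates above 0, with no gene called. Of 18 further enzymes listed, 17 were tested. The 18th, Idi2, had 0 to 2 reads per library. Of the 17, 12 had a fitted difference above 0 and 5 below, with a median log2 fold change of 0.13, beside 46.9% above 0 and a median of -0.015 over all tested genes. Groups did not overlap in 8 of the 17, 5 with DMXAA higher (Acat2, Mvk, Lss, Nsdhl, Hsd17b7) and 3 with DMXAA lower (Pmvk, Tm7sf2, Ebp), beside 13.7% and 12.3% of all tested genes. At an unadjusted p below 0.05 there was 1 gene higher and 0 lower, beside 3.89% and 2.65% of all genes. edgeR and DESeq2 each called 0 of the 17. Over all genes, edgeR called 0%, and DESeq2 called 0.378% of those it gave an adjusted p.

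Nsdhl, a decarboxylating sterol dehydrogenase, was the 1 enzyme under that p, at 47.5, 51.5 and 43.9 CPM with vehicle against 52.9 and 63.1 CPM with DMXAA (log2 fold change 0.28, SE 0.12; edgeR adjusted p = 0.741). Both DMXAA libraries were above the vehicle range, DMXAA library 1 only narrowly, and without DMXAA library 2 the log2 fold change was 0.15. Mevalonate kinase, Mvk, was at 17.2, 22.4 and 21.6 CPM with vehicle against 26.7 and 24.3 CPM with DMXAA (log2 fold change 0.32, SE 0.14; 0.21 without vehicle library 1). Lanosterol synthase, Lss, which acts between Sqle and Cyp51, was at 28.3, 33.9 and 29.5 CPM with vehicle against 34.7 and 37.8 CPM with DMXAA (log2 fold change 0.24, SE 0.11). In the other direction Ebp, a sterol isomerase, was at 62.1, 78.2 and 61.7 CPM with vehicle against 59.1 and 54.5 CPM with DMXAA.

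Groups overlapped for Fdft1 and Dhcr7. Squalene synthase, Fdft1, was at 34.3, 42.5 and 37.7 CPM with vehicle against 32.1 and 41.4 CPM with DMXAA. Exons of Ctsb on the other strand hold 18.3% of its exon bases, and Ctsb had 10039 to 15983 reads per library. The strand setting of the counts is not given, and the part of Ctsb reads in the Fdft1 count was not tested. Dhcr7, the last reductase of one branch, was at 22.5, 25.2 and 19.6 CPM with vehicle against 26.3 and 24.9 CPM with DMXAA.

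**Figure D3:**
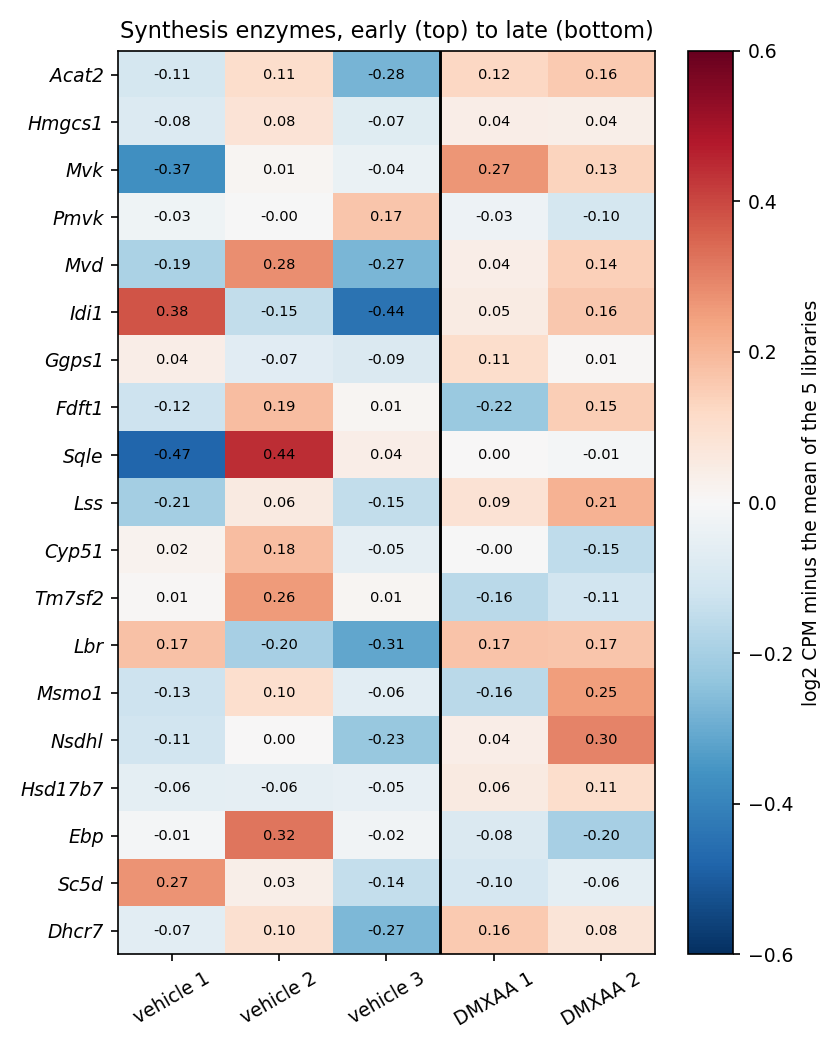
Log2 CPM of synthesis enzymes in pathway order (rows), minus each gene's mean over the 5 libraries (columns; a black line parts vehicle from DMXAA; red is above and blue below the mean). Fdps and Idi2 are left out for their low counts. Idi1 and Sqle take opposite signs in vehicle library 1 (0.38 and -0.47), and the DMXAA columns hold smaller values for both.

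Summed over the 23 enzymes of the pathway, the level was 1314, 1390 and 1264 TPM with vehicle against 1429 and 1491 TPM with DMXAA. On the CPM scale the same sum was 1893, 2283 and 1913 with vehicle against 2137 and 2191 with DMXAA, where the groups overlapped. The groups were apart in the first sum only, and the TPM sum carries no TMM factors, so the sums differ in library scaling as well as in length. A summed set of 8 markers of the proximal tubule, the most abundant kidney cell type, was at 8077, 9572 and 8046 CPM with vehicle. With DMXAA it was at 9612 and 10190 CPM, so the groups were only narrowly apart. The markers did not all move alike: Slc22a8 and Aqp1 had log2 fold changes of -0.16 and -0.14. The others lay above 0, from 0.18 for Slc34a1, whose groups overlapped, to 0.70 for Slc5a12. The part of this cell type in the enzyme levels was not tested. In whole tissue, more cells of a type and more RNA per cell cannot be told apart.

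Genes that carry, cut and sense SREBP had estimates on both sides of 0, with Srebf1 among the lowest. Of 9 tested genes, 4 had estimates above 0 and 5 below. The median log2 fold change was -0.022 in the main fit, 0.041 without vehicle library 2 and 0.031 without DMXAA library 2. Both edgeR and DESeq2 called 0 of these genes, beside 0% and 0.378% of all genes they gave an adjusted p. Groups did not overlap in 5 of the 9 (2 higher, 3 lower), beside 26% of all tested genes (13.7% higher, 12.3% lower). Scap, the escort, was at 75.9, 90.4 and 81.3 CPM with vehicle against 85.3 and 77.2 CPM with DMXAA. The site-2 protease gene Mbtps2 was at 21.2, 19.7 and 23.0 CPM with vehicle against 23.1 and 26.8 CPM with DMXAA, with 28.4% of its exon bases shared with other genes. Paqr3, a Golgi anchor for the SCAP complex, was at 2.43, 1.88 and 2.50 CPM with vehicle against 1.50 and 1.19 CPM with DMXAA (unadjusted p = 0.0487 in edgeR). Exons of Bmp2k on the other strand, with 449 to 514 reads per library, hold 15.7% of the Paqr3 exon bases. The part of Bmp2k reads in the Paqr3 count was not tested. The ubiquitin ligase gene Rnf145 was at 110, 152 and 119 CPM with vehicle against 117 and 105 CPM with DMXAA.

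Srebf1, the paralogue of Srebf2 that drives fatty acid synthesis, was at 62.9, 83.6 and 77.2 CPM with vehicle against 54.1 and 47.5 CPM with DMXAA. Both DMXAA libraries were below every vehicle library. Its fold change was 0.681 with a 95% interval of 0.539 to 0.861 (log2 -0.55, SE 0.14; unadjusted p = 0.00628, adjusted p = 0.724 in edgeR; adjusted p = 0.133 in DESeq2). Leaving out 1 library at a time, its log2 fold change ran from -0.67 (without vehicle library 1) to -0.46 (without DMXAA library 2). Without vehicle library 2 it was also -0.46. Insig1 and Srebf1 had estimates of similar size while Srebf2 lay at 0.018. The intervals of Srebf1 (-0.89 to -0.22) and Srebf2 (-0.24 to 0.28) overlap slightly on the log2 scale, and the difference between the genes was not tested.

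**Figure D4:**
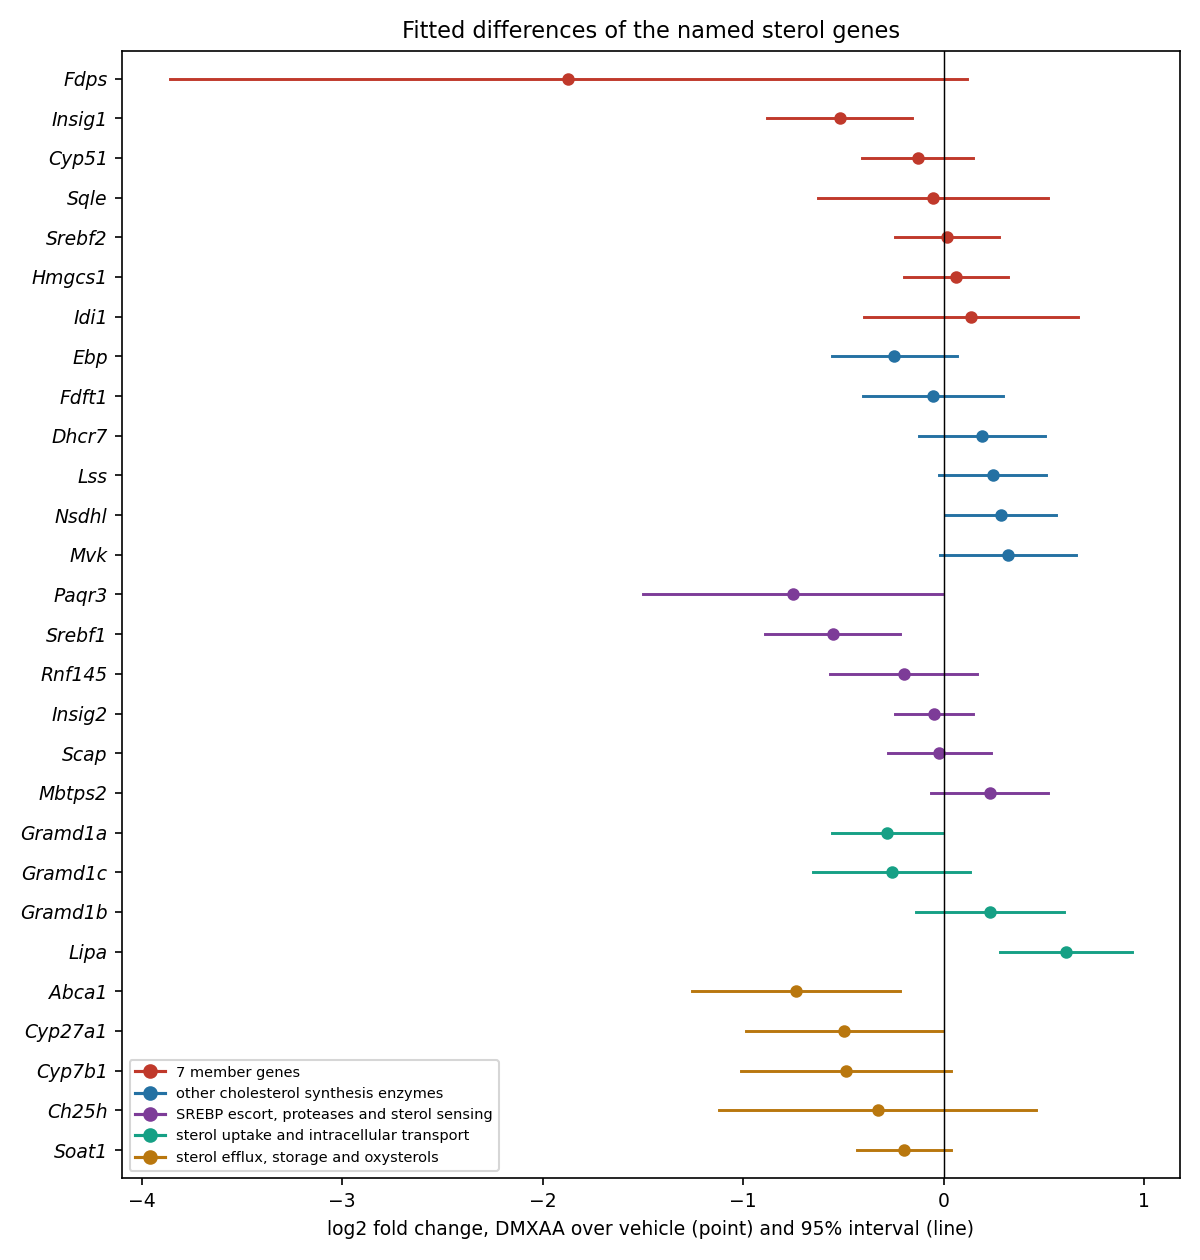
Fitted log2 fold change of DMXAA over vehicle (x axis; points) with its 95% interval (lines) for the 7 genes and the named genes of the 4 other sterol lists (colours). The intervals of Insig1, Srebf1, Abca1 and Lipa are among those that lie clear of 0 before adjustment, and no gene in the plot passed the adjusted threshold in edgeR.

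For uptake and intracellular transport, the log2 fold changes of the 15 tested genes (16 were listed) had their median at 0.0036 (-0.092 without vehicle library 1), with 8 above 0 and 7 below, and groups did not overlap in 3 of the 15, beside 26% of all tested genes. The remaining gene, Npc1l1, had 0 to 3 reads per library.

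Lipa, the lysosomal acid lipase that frees cholesterol from lipoprotein esters after uptake, was the uptake-list gene furthest apart. It was at 209, 267 and 204 CPM with vehicle against 344 and 347 CPM with DMXAA. Both DMXAA libraries were above every vehicle library by a gap wider than the vehicle range. The fold change was 1.53 with a 95% interval of 1.22 to 1.92 (log2 0.61, SE 0.14), at an adjusted p of 0.675 in edgeR and 0.0216 in DESeq2, which called 0.378% of the genes it gave an adjusted p. Leaving out any 1 library gave log2 fold changes of 0.54 to 0.75. Markers of macrophages, a cell type rich in lysosomes, summed to 132, 89.9 and 161 CPM with vehicle. With DMXAA they summed to 131 and 105 CPM, and the groups overlapped. The markers did not all move alike: Lyz2 had a log2 fold change of -0.56. Adgre1, Csf1r, Cd68 and Mrc1 lay above 0, from 0.041 for Cd68 to 0.17 for Adgre1. The part of this cell type in the Lipa level was not tested. The sterol transfer genes Gramd1a (29.1, 29.4 and 33.2 CPM with vehicle, 27.0 and 23.3 CPM with DMXAA) and Gramd1c (11.1, 9.21 and 9.48 CPM with vehicle, 8.05 and 8.56 CPM with DMXAA) lay lower without overlap. Gramd1b, of the same family, overlapped at 169, 199 and 240 CPM with vehicle against 228 and 248 CPM with DMXAA.

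Efflux, storage and oxysterol genes mostly had estimates below 0. Of 12 tested genes of 13 listed, 2 had estimates above 0 and 10 below. Their median log2 fold change was -0.31, beside -0.015 over all tested genes. Both edgeR and DESeq2 called 0 of these genes, beside 0% and 0.378% of all genes they gave an adjusted p. Groups did not overlap in 3 of the 12 (25.0%), beside 26% of all tested genes. In these 3 (Abca1, Apoe and Soat1) DMXAA was lower, as in 12.3% of all tested genes. The 13th, Hsd3b7, had 0 to 2 reads per library, with 99.2% of its exon bases shared with other genes. The median was -0.17 with the replicate number as a block, -0.16 without vehicle library 3 and -0.16 without DMXAA library 2. Vehicle library 3 has no DMXAA library of its number, so with the block it adds nothing to the fold change. The block fit and the fit without that library are therefore not separate checks.

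Abca1, the cholesterol exporter driven by the sterol-sensing LXR receptors, was at 41.6, 42.6 and 54.9 CPM with vehicle against 34.0 and 21.6 CPM with DMXAA. DMXAA library 2 lay far below library 1, and both lay under the vehicle range. The fold change was 0.600 with a 95% interval of 0.419 to 0.859 (log2 -0.74, SE 0.22; unadjusted p = 0.0122, adjusted p = 0.724 in edgeR), and without DMXAA library 2 the log2 fold change was -0.45. A pair of oxysterol enzymes had overlapping groups: Cyp27a1, the sterol 27-hydroxylase, at 33.8, 52.9 and 45.6 CPM with vehicle against 35.2 and 27.3 CPM with DMXAA, and Cyp7b1 at 179, 177 and 143 CPM with vehicle against 148 and 89.4 CPM with DMXAA. Soat1, which esterifies cholesterol for storage, was at 24.9, 26.5 and 26.6 CPM with vehicle against 23.2 and 22.1 CPM with DMXAA. Ch25h, an interferon-induced enzyme whose product 25-hydroxycholesterol blocks SREBP processing, was low, at 1.95, 2.79 and 3.05 CPM with vehicle against 2.44 and 1.69 CPM with DMXAA (log2 fold change -0.33, SE 0.33). The Ch25h estimate was -0.61 without DMXAA library 1, -0.086 without DMXAA library 2, -0.51 without vehicle library 1 and -0.20 without vehicle library 3.

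**Figure D5:**
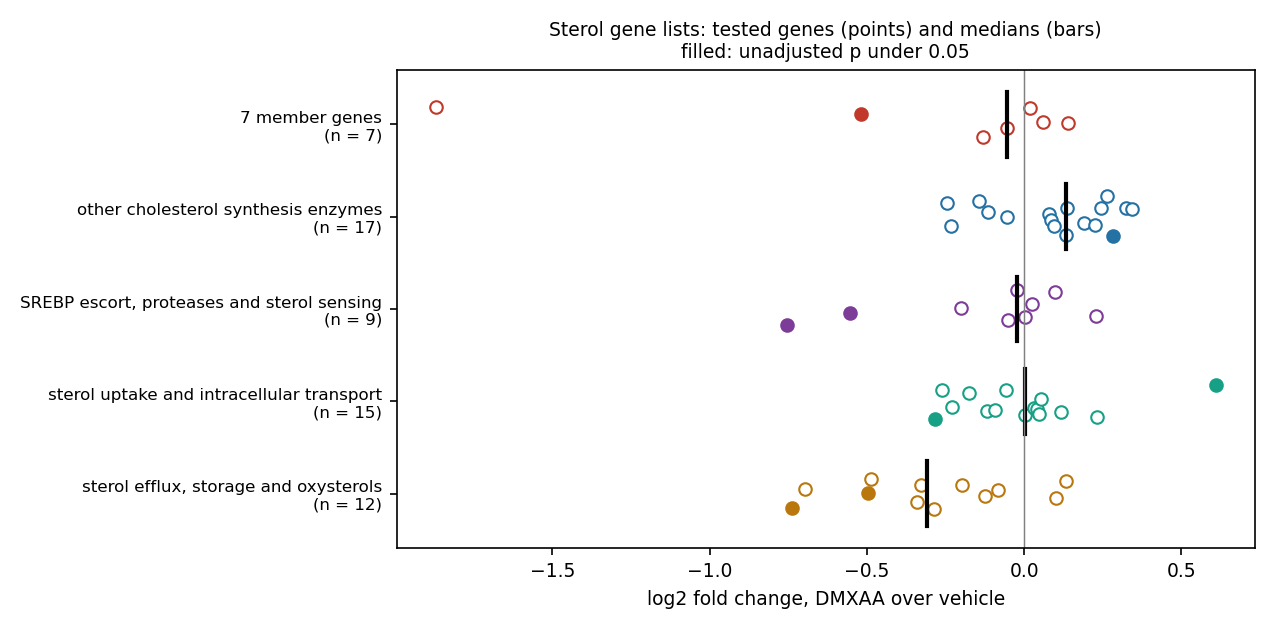
Log2 fold change of DMXAA over vehicle (x axis) for every tested gene of the 7-gene set and 4 other sterol lists (rows; points, filled at an unadjusted p below 0.05), with list medians as bars. The efflux, storage and oxysterol list has its median at -0.31 and the other synthesis enzymes at 0.13; the 7 genes have theirs at -0.053, with Fdps far to the left.

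The genes most like the 7 in pattern were sought by the root mean square difference between centred log2 CPM profiles over the 5 libraries, among 10376 genes with an average log2 CPM above 3 outside the sterol lists. Against the mean profile of the 7 they were Elk4 (difference 0.025), Mtln (0.037), Alg3 (0.045), Exosc1 (0.052) and Thop1 (0.054). That profile leans on the few reads of Fdps. Against the mean of the 6 others, which ran only from -0.058 in vehicle library 1 to 0.18 in vehicle library 2, they were Mrpl24 (0.010), Atp5h (0.013), Pip4p1 (0.014), Slc35d1 (0.014) and Cdv3 (0.016). None of these 10 is a sterol enzyme of the lists by construction of the search. The 6-gene profile is nearly flat, so genes that vary little also lie near it.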

How the data were processed

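The deposited file is a table of raw read counts per Ensembl gene ID, made by the authors. The submitters' processing notes name HISAT2, featureCounts, Subread, DESeq2 1.16.1 and mm10, while for the roles, annotation, strand setting and handling of shared or multiply mapped reads nothing was found in the labels or file header. The labels name both a TruSeq and a NEBNext kit without saying which sample had which. Columns were assigned to samples by their names. Symbols came from GENCODE M21 (99.9% of IDs matched).

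Counts were scaled by TMM and tested with edgeR 4.0.16 (quasi-likelihood, filterByExpr defaults, R 4.3.3), two-sided, with Benjamini-Hochberg adjustment over all tested genes and a threshold of 0.05. SEs and 95% intervals derive from the F statistic and its degrees of freedom, and TPM from merged exon lengths. Near copies were searched with blastn 2.17.0. Scripts were tested on simulated data. Alternatives were DESeq2 1.42.0, RLE factors, other filters, robust fitting, removal of abundant genes, length and GC offsets, the replicate number as a block, and each library left out. Replicate numbers are not said to mark a shared litter or day.

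The 7 genes and the other lists were chosen with earlier results of these data known. Genes named were the 7, up to 4 per list with the smallest unadjusted p, 8 of 12 fixed pathway genes (the others are not reported here), and the 5 genes most like the 7 in profile. The 5 most like the 6 genes without Fdps, and members of lists named where a count is small, were added after values were seen.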

Additional observations from a re-analysis of the deposited data

How the results depend on the processing

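edgeR called 0 genes at an adjusted p below 0.05 (1062 at an unadjusted p below 0.05), DESeq2 called 59, edgeR without an expression filter 34, and edgeR with the replicate number as a block 4. Leaving out 1 library gave 0 to 2 calls, the 2 without vehicle replicate 1. None of the 7 genes was called under any of the 13 alternatives that gave it an adjusted p, and Lipa was called by DESeq2 alone. Where all 7 had a value, their median ran from -0.093 (length and GC offsets) to -0.0091 (replicate block). Without vehicle replicate 1 it was -0.11 and without vehicle replicate 2 it was 0.062. Those 2 medians are over the 6 genes without Fdps, beside -0.0175 for the same 6 in the main fit. Same-numbered libraries correlated at 0.036 and 0.017 over 10430 genes after removal of group means. The deviations of the 2 DMXAA libraries mirror each other, so these values cannot decide whether equal numbers mark a shared litter or day. Signs turned for small estimates. With the block, where vehicle replicate 3 has no DMXAA partner and adds nothing to the fold change, Sqle was at 0.011 and Idi1 at -0.0091. Leaving out 1 library at a time, Srebf2 ran from -0.062 (without vehicle replicate 1) to 0.077, Sqle from -0.26 to 0.19 (without vehicle replicate 2), Idi1 from -0.032 (without vehicle replicate 3) to 0.39, Fdft1 from -0.25 to 0.13 (without DMXAA replicate 1; 0.035 without vehicle replicate 2), and Scap from -0.090 to 0.050 (without vehicle replicate 2; 0.049 without DMXAA replicate 2). Srebf2 was at -0.027 without DMXAA replicate 2. The cause was not tested. Insig1 ran from -0.63 to -0.37 and Fdps from -2.55 to -1.43. Fdps was left without a value by the filter of 1 CPM in 2 libraries and without vehicle replicate 1 or 2, where it missed the filter. DESeq2 gave Fdps a fold change but no adjusted p, so it could not be called there. With 2 DMXAA libraries, leaving out 1 leaves a single library assumed to vary like the vehicle group.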
